A study of Mus musculus with 81 samples.

Results

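The stromal cells of the mouse fetal pancreas, the loose connective tissue cells around the budding epithelium, were described as 1 population of 62 cells among 81 single cells. The members were chosen by measured values of 5 genes. A cell was counted as stromal when Col3a1, the gene of the fibrillar collagen III chain, was at 10 RPKM or more (reads per kilobase of transcript, scaled to the depth of the library, so a level per length) and 4 genes of other cell types were each under 10 RPKM. These were Epcam (epithelium), Chga (endocrine cells), Tyrobp (macrophages) and Emcn (endothelium). The 4 shallow cells C3, C43, C61 and C94, named as in the sample titles, were left out. The 62 cells were 80.52% of the 77 deep cells, with an exact Clopper-Pearson 95% interval of 69.91% to 88.67% that covers counting error only, and 76.54% of all 81.

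The tissue was pancreas of CD1 mouse embryos, wild type, at embryonic day 13.5, with no treatment or altered allele in the labels. The pancreata were dissociated with trypsin, the cells were captured on a microfluidic device and their RNA was amplified by the SMARTer method, and each cell gave 1 library. No animal is named in the labels, so all cells count as 1 sample and every value below is a description with no p-value.

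Fetal pancreatic mesenchyme surrounds the epithelial buds, lays down extracellular matrix and sends growth factors that the epithelium needs to grow and branch. It is known for FGF10, Wnt, retinoid and BMP signalling, and it gives rise to fibroblasts, pericytes and smooth muscle of the organ. Ligands act on neighbouring cells that carry the receptor, and secreted inhibitors and matrix proteins set how far they reach.

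The thresholds fell in gaps of the values. Col3a1 was 10.45 RPKM in cell C88, 18.43 in C62 and 22.93 in C76, the lowest of the stromal cells, and 2.902, 0.6913 and 0.3667 in the 3 deep cells under the threshold. Epcam reached 0.6302 RPKM inside the population and started at 12.32 outside it. For Chga the corresponding values were 0.1075 and 40.7, for Tyrobp 1.444 and 866.5, and for Emcn 0.6086 and 193.5. The remaining 15 deep cells comprised 6 with Epcam alone, 4 with Tyrobp, 2 with Emcn, 2 with Chga and 1 with low Col3a1 only, and Col3a1 was at 1 RPKM or more in 13 of them.

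Depth and detection varied among the stromal cells. The lowest, median and highest estimated depths were 1630000, 3496000 and 4878000 reads, and the numbers of genes at 1 RPKM or more were 2353, 4036 and 5110. Pairs of stromal cells had a Pearson r across genes on log2(RPKM + 1) between 0.3935 and 0.5969, with a median of 0.513; genes are not independent replicates. C35 and C81 stood apart, with the fewest genes (2594 and 2353) and the lowest mean r with the others (0.4294 and 0.4409). Several lists and highest or lowest values that rest on them are also given without them below. By the cell numbers in the titles, the population held 29 of the 38 deep cells numbered 1 to 48 and 33 of the 39 numbered 49 to 96.

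Sequences are shown first for the genes that anchor the description. Col3a1 defined the cells, Ptn was a secreted factor found in every one of them and the second of the genes furthest above the other cells, and Fos was an abundant gene whose low values fell partly in the cells of low Egr1. Each promoter runs from 250 bases before to 50 bases after the gene's start in RefSeq on GRCm38.p6, as chr1:45311288-45311587 on the plus strand for Col3a1, chr6:36810130-36810429 on the minus strand for Ptn and chr12:85473640-85473939 on the plus strand for Fos. The motifs TATAAA and CCAAT, searched on both strands, are in capitals. They do not overlap each other.
Col3a1: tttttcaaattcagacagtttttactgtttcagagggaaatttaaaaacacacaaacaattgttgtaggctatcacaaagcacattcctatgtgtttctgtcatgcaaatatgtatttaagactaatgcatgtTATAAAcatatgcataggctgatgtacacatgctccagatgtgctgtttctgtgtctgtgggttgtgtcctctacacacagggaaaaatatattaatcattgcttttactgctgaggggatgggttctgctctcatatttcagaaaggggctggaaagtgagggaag
Ptn: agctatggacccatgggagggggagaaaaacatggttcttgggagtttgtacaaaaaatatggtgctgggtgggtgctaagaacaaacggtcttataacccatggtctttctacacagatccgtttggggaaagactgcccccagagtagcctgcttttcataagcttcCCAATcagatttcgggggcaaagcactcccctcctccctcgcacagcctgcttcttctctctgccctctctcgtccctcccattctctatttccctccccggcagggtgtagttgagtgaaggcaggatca
Fos: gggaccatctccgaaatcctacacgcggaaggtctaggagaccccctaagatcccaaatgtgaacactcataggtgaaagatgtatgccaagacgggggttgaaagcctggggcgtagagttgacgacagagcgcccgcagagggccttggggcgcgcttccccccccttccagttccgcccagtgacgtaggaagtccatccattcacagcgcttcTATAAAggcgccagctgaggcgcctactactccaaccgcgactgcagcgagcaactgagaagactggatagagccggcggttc
TATAAA began 33 bases before the start of Fos and 117 bases before that of Col3a1, and CCAAT began 81 bases before the start of Ptn. Of 32851 RefSeq promoters of the same length, 13.6% held TATAAA and 37.4% held CCAAT. A match is a description of the letters and not a binding site.

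The 5 given markers were present in most of the cells. Col1a2, a collagen I chain, was between 3.965 and 448.5 RPKM with a median of 173.8, and Nfib, a nuclear factor I transcription factor, was between 21.45 and 276.8 with a median of 81.46. Both were at 1 RPKM or more in all 62 cells, as Col3a1 was by the rule (median 122.2, highest 427.1). Sulf2, an extracellular heparan sulfate 6-O-endosulfatase, had a median of 29.15 RPKM and was at 1 RPKM in 55 cells, and Zeb2, a zinc finger transcription repressor, had a median of 11.07 and was at 1 RPKM in 52. Nfib, Sulf2 and Zeb2 were named as markers from earlier results on these same cells and are not independent of them. Among the other mesenchymal genes of the list, Col1a1 was at 1 RPKM in 62 cells, Pdgfrb in 61, Tcf21 in 48 and Pdgfra in 43, whereas Dcn was in 13, Twist1 in 8 and Lum in 5.

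**Figure D1:**
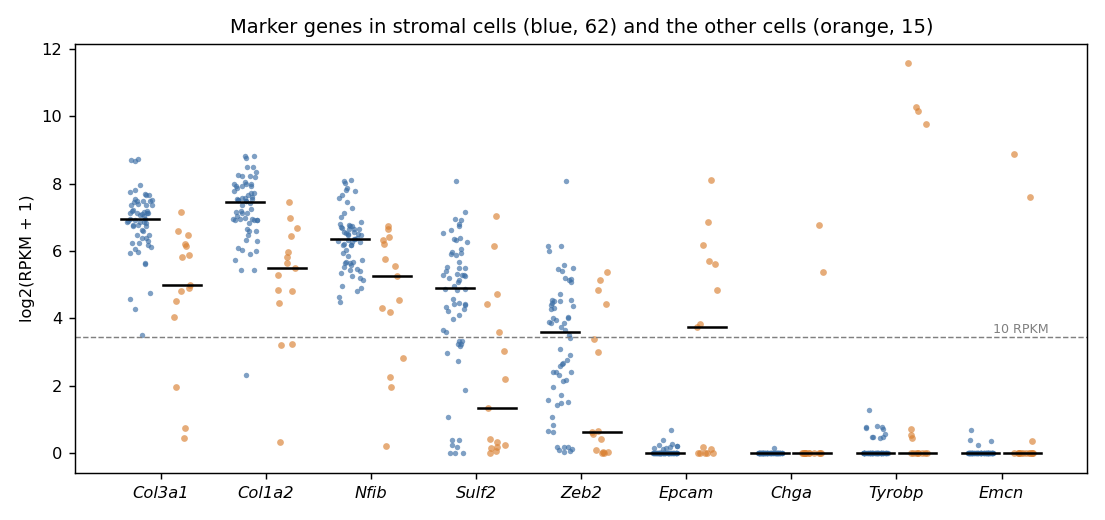
The 5 given markers and the 4 excluded genes in each of the 62 stromal cells (blue) and 15 other deep cells (orange), on a log2(RPKM + 1) axis; black bars are medians and the dashed line is 10 RPKM. The rule fixes the positions of Col3a1, Epcam, Chga, Tyrobp and Emcn, while Col1a2 and Nfib were above 1 RPKM in every stromal cell.

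Markers of other cell types were summed without the 5 genes of the rule. No stromal cell had more than 1 of 9 epithelial, 9 endocrine, 9 macrophage or 9 endothelial markers at 10 RPKM. The summed epithelial markers had a median of 0.1681 RPKM in the stromal cells and 15.36 in the other cells, but reached 338.5 in the stromal cell C37, against 767.9 in the highest of the others. The summed endocrine markers reached 38.37 RPKM in the stromal cells and 56620 in the other cells, the summed macrophage markers 50.16 and 7066, and the summed endothelial markers 20.08 and 578.9. Neural and glial markers had a summed median of 0 and reached 44.78 RPKM in C4. Mesothelial markers had a summed median of 28.05 and reached 416.1 in C77, with 5 of 7 at 10 RPKM in some stromal cell. The part of these genes in other results was not tested. Of the 9 erythroid markers, 8 were listed at 0 in every stromal cell. At least 3 of 9 smooth muscle and pericyte markers were at 10 RPKM in 13 of the 62 cells, and the summed level ran from 0 over a median of 197.5 to 687.8 RPKM. In C51, the cell of the highest sum, Rgs5 alone was 669.2 RPKM, and the median of Rgs5 was 141. Of the 9 markers, 2 were at 1 RPKM in at least 50% of the cells, and Acta2 was in 18 cells. Wt1, which is on the mesothelial list and is known in visceral mesenchyme too, was at 1 RPKM in 44 cells with a median of 20.95.

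Low levels of pancreatic hormone transcripts followed the library indexes. Gcg (glucagon) was at 1 RPKM or more in 20 stromal cells, with a highest value of 32.89 RPKM in C40. All 20 were among the 26 stromal cells whose library shared an index with C24 or C56, where Gcg was 48650 and 22610 RPKM, and it was in 0 of the 36 that shared none. Pyy (peptide YY) was at 1 RPKM in 15 of the same 26 and in 0 of the 36. The index sequences are given in the labels, and the same 26 cells are those in the plate rows and columns of C24 and C56 by the table's headers, so index and position on the plate cannot be told apart. No pair of indexes was used by more than 1 cell, and the part of either in these values was not tested.

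The 20 most abundant genes, by median RPKM, were led by the cytoskeleton, translation, chaperones and growth control. Actb (beta-actin) had 1377 RPKM in the lowest cell, a median of 3759 and 6536 in the highest. Cdkn1c, the imprinted cyclin-dependent kinase inhibitor p57, came next with 513.7, 1781 and 3497 RPKM, and no stromal cell was without it. Its median in the other cells was 704.9 RPKM. Hsp90ab1 (a cytosolic chaperone) was among the next at a median of 1082, Eef1a1 (translation elongation) at 1048, Malat1 (a nuclear long noncoding RNA) at 904.6 and Ptges3 (the p23 co-chaperone) at 853.8. Ribosomal protein genes made up 5 of the 20.

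Gpc3 (glypican 3, a heparan sulfate proteoglycan of the cell surface) was between 71.1 and 1546 RPKM with a median of 604, and its median in the other cells was 329.5. Vim (vimentin, the mesenchymal intermediate filament) had a median of 540.3 RPKM, close to the 530.3 of the other cells, and it was 2.244 in C35 and 67.14 in the next lowest cell. Itm2a, a small membrane protein, ran from 0.9183 over 587.3 to 3403 RPKM (2502 without C35 and C81), with 60 of 62 cells at 10 RPKM or more. Together the 20 genes held 7.011% to 12.12% of a stromal cell's summed RPKM, with a median of 9.442%.

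**Figure D2:**
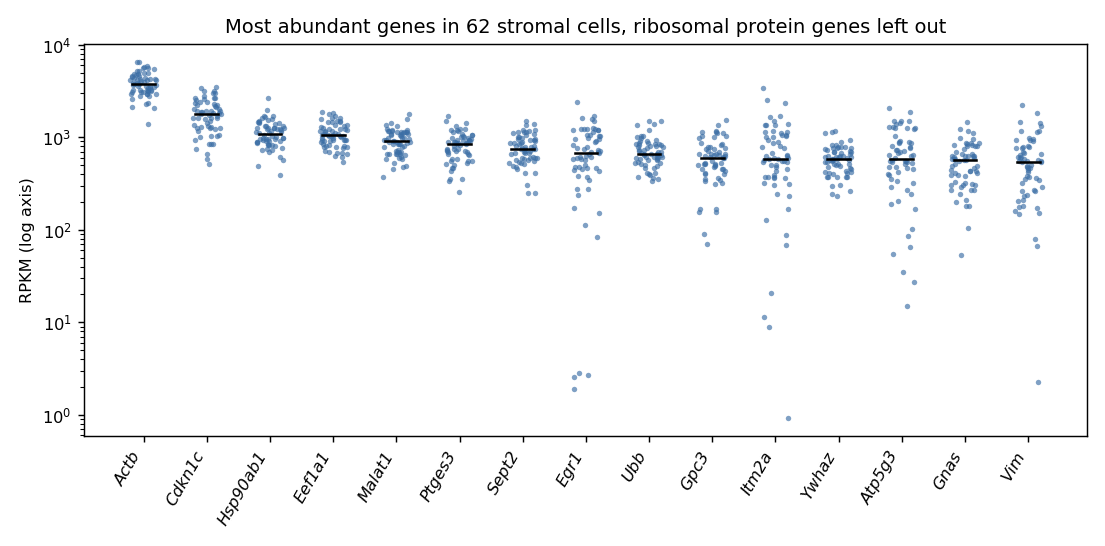
RPKM on a log axis in each of the 62 stromal cells, for the 20 genes of highest median other than ribosomal protein genes (15 genes); black bars are medians. Actb, Hsp90ab1, Eef1a1 and Malat1 form tight columns, while Egr1, Itm2a, Atp5g3 and Vim spread over a wider range.

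Most genes were seen in few cells. Of 22869 gene symbols, 13260 were at 1 RPKM or more in at least 1 stromal cell, 3019 (13.2%) in at least 50% of them and 239 (1.05%) in every one. A gene's median reached 10 RPKM for 1375 genes, 100 RPKM for 222 and 500 RPKM for 23. Of the 5803 genes that reached 100 RPKM in some stromal cell, 3490 were at 1 RPKM in under 50% of the cells. A further 8201 genes were listed at 0 in all 62. Some transcripts that all cells use are low in this table, such as Gapdh at a median of 0.419 RPKM and Rps2 at 0.2973, so a listed 0 is not taken as absence.

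The most uniform genes were ranked by the coefficient of variation (CV, the SD over cells divided by the mean) among the 238 genes at 1 RPKM in every cell with a median of at least 10. Actb had the lowest CV, 0.2784, followed by Eef1a1 at 0.2966, Malat1 at 0.3073, Rps19 at 0.3085 and Rpl41 at 0.3199. The median CV over the 238 was 0.6419. Genes of the 14-3-3 adaptor family (Ywhaz, Ywhae), septins (Sept2, Sept11), Marcks (an actin-binding kinase substrate), Ptma and Set (chromatin and histone chaperones) and 6 ribosomal protein genes filled most of the list. Of the 20, 12 were also among the 20 most abundant.

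Serpinh1 (the collagen chaperone HSP47 of the endoplasmic reticulum) was a gene of collagen production in this list. It was between 42.76 and 281.7 RPKM with a median of 150.6 and a CV of 0.357, which placed it 11th. It was not particular to the stromal cells, since all 15 other deep cells had it at 1 RPKM, with a median of 99.43. Among the collagens it serves, Col1a2 had a CV of 0.5564 and Col1a1 of 0.959, and Col3a1, which the rule limited from below, of 0.6059. For several uniform genes the reads could be shared with near copies. In GENCODE vM21 transcripts, 59.2% of the 50-base windows of Eef1a1 also occur in other genes, as do 61% of those of Ubb, 37.6% of Set and 14.2% of Actb, so their levels are uncertain.

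The most variable genes by CV were dominated by genes seen in few cells. Among 4200 genes with a mean of at least 10 RPKM and 10 RPKM or more in at least 10% of the cells, genes were ranked by how far their squared CV lay above the running median of genes of like mean. Mavs (the mitochondrial antiviral adaptor) came first, 3.19 log2 units above it: it was at 0 in the median cell, at 1 RPKM in 15 cells and at 984.7 RPKM in C35. Polr3c (an RNA polymerase III subunit), Mob2 and Tmbim4 also had their highest value in C35, and Nit1 and Thumpd3 in C81. Without those 2 cells the highest values were 95.29 RPKM for Mavs, 309.1 for Polr3c, 139.6 for Mob2, 174.5 for Tmbim4, 283.9 for Nit1 and 184.7 for Thumpd3. Of the first 50 genes, 40 had a median under 1 RPKM, and the like share of all 4200 is not given here. Of the 50, 23 had their highest value in C35 or C81. Over all 4200 ranked genes, 4.548% had it in C35 and 5.119% in C81. Without those 2 cells, 30 of the 50 remained in the list.

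**Figure D3:**
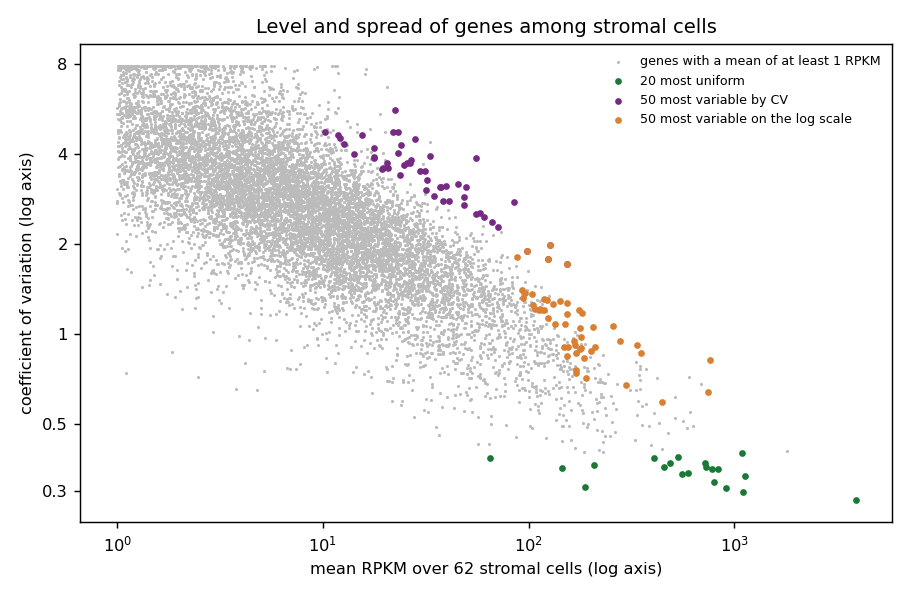
Mean RPKM against the CV over the 62 stromal cells, both on log axes, for genes with a mean of at least 1 RPKM; colours mark the 20 most uniform genes and the first 50 of each ranking of variability. The genes variable by CV lie at means between 10.26 and 153.7 RPKM, and those variable on the log scale lie mostly further right, with the 4 shared genes in the colour of the log scale.

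Rows of short RNAs were common in that list, with 14 microRNA or small nucleolar RNA rows among the 50 against 29 among all 4200 ranked genes. All 8 microRNA rows in either list of variable genes lie inside a longer gene on the same strand, so their reads cannot be told apart from those of the host transcript. Mir214 (mm9 chr1:164153499-164153608, in Dnm3os, a noncoding RNA of mesenchyme) had a median of 2.634 RPKM and a highest value of 1404 in C80, Mir3064 (in Ddx5, an RNA helicase) a median of 42.82 and a highest value of 1088, and Mir675 (in H19, an imprinted noncoding RNA) a median of 0 and a highest value of 902.5 in C81 (571.5 without C35 and C81). Across the 62 cells, log2(RPKM + 1) of Mir3064 and Ddx5 had r = 0.679, of Mir214 and Dnm3os 0.6 and of Mir675 and H19 0.376, all sharing the cells' depth. The mature RNAs these rows are named for are shown from RefSeq with the seed, bases 2 to 8, in capitals.
mmu-miR-214-3p: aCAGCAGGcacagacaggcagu
mmu-miR-214-5p: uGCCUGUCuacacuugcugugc
mmu-miR-3064-5p: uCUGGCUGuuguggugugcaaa
mmu-miR-3064-3p: uGCCACACugcaacaccuuaca
mmu-miR-675-5p: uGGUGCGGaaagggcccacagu
mmu-miR-675-3p: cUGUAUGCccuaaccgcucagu
No 2 of these 6 share a seed. The values describe reads placed on the hairpin rows and do not measure the mature RNAs.

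Named secreted factors and patterning genes were also in the list by CV. Cxcl13, a chemokine that attracts B cells, was at 1 RPKM in 15 cells and at 740.1 RPKM in C11. Cxcl12, the ligand of CXCR4, was at 1 RPKM in 25 cells and at 515.6 RPKM in C35, with 132.4 the highest without C35 and C81. Msx1, a homeobox gene that acts downstream of BMP signals, was at 1 RPKM in 15 cells and at 538.1 RPKM in C81, with 184.6 the highest without them. The 3 genes had medians of 0.1927 RPKM or less, so the high values came from a minority of cells.

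A ranking by the spread of log2(RPKM + 1) gave other genes, with 4 of its first 50 shared with the ranking by CV, and 1 of the 50 with a median under 1 RPKM. Id2, an inhibitor of basic helix-loop-helix factors and a BMP target, came first: it was at 0 in the lowest cells, at a median of 157.4 RPKM and at 1174 in C55, and 50 of 62 cells were at 1 RPKM. Rgs5, a regulator of G protein signalling known from pericytes, ran from 0 over 141 to 669.2 RPKM with 56 cells at 1 RPKM. Smoc2, a secreted calcium-binding matricellular protein, ran from 0 over 145.3 to 1265 RPKM with 58 cells. Each of these genes thus had a broad range with a small group of cells at or near 0. The same held for genes that all cells use, which were frequent in this list. Examples are Gpx1 (2nd, median 259.8 RPKM, 57 cells at 1 RPKM), Cox6a1 (6th, 183.1, 54 cells) and Psmb2 (12th, 125.8, 59 cells). Id2 had r = 0.321 with the number of genes at 1 RPKM in the cell. The part of missed transcripts in these low values was not tested. Of the 50, 32 were also in the first 50 when only stromal cells numbered 1 to 48 were ranked, 33 with those numbered 49 to 96, and 45 without C35 and C81.

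Of 20 immediate early genes, which cells switch on quickly after a stimulus, 11 were at 1 RPKM in at least 50% of the cells, beside 13.2% of all genes, and the median of their medians was 1.683 RPKM. Egr1 and Fos were in all cells, and Egr1 alone was among the 20 most abundant genes and among the 50 most variable on the log scale. Egr1 had a median of 681.5 RPKM and reached 2408 in C79, but was 2.834 or less in C11, C35, C41 and C52 and 83.23 in the next cell. Fos had a median of 392.1 RPKM, from 1.432 in C35 to 1435 in C81 (14.63 to 1301 without those 2 cells), and Cyr61, a matricellular protein of the CCN family, had a median of 246, from 0.1213 in C90 to 1164 in C55. On the log2(RPKM + 1) scale Egr1 had r = 0.677 with Fos and 0.651 with Cyr61 across the 62 cells. Over the 58 cells with Egr1 at 10 RPKM or more these were 0.379 and 0.371, so much of the relation rested on the 4 low cells.

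**Figure D4:**
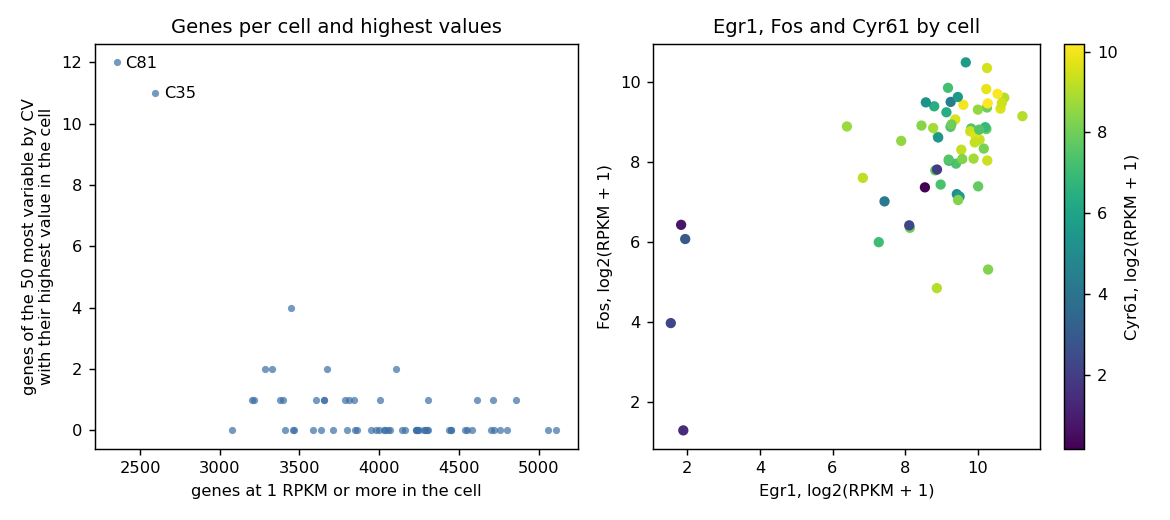
Left, the number of genes at 1 RPKM in each stromal cell against how many of the 50 genes most variable by CV had their highest value there. C81 with 12 and C35 with 11 stand apart at the low end of the gene counts. Right, log2(RPKM + 1) of Egr1 and Fos in each cell, coloured by Cyr61, with the 4 cells of low Egr1 at the left.

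Secreted ligands were in at least 50% of the stromal cells less often than all genes, and their secreted inhibitors more often. Of the 232 ligands and inhibitors, 22 (9.483%) were at 1 RPKM in at least 50% of the stromal cells, beside 13.2% of all genes. Listed at 0 in every stromal cell were 86 of the 232, beside 8201 of all 22869 genes. The share in at least 50% of the cells was 14 of 196 (7.143%) for ligands. It was 8 of 36 (22.22%) for inhibitors and binding proteins. For receptors it was 40 of 212 (18.87%) and for matrix genes 38 of 96 (39.58%). Over all genes the median share of stromal cells at 1 RPKM was 3.226%, and it was 1.613% for secreted factors, 12.9% for receptors and 37.1% for matrix genes.

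The heparin-binding growth factors led the ligands. Mdk (midkine) was at 73.47 RPKM in the lowest cell, 386.2 at the median and 1018 in the highest, and its median in the other cells was 334.6. Ptn (pleiotrophin, mm9 chr6:36665663-36761361, the gene of the promoter above) was at 67.37, 309.1 and 830.7 RPKM in the stromal cells, and its median in the other cells was 67.41, with 13 of the 15 at 1 RPKM. Both ligands were thus in every stromal cell, with r = 0.197 between them. The 9 receptors and co-receptors listed for them had much lower medians. None of the 9 was at 1 RPKM in at least 50% of the cells, beside 13.2% of all genes. Lrp1 had a median of 0.5726 and Sdc1 of 0.4921 RPKM, although Sdc1 was at 10 RPKM or more in 22 cells and reached 144.5 in C96. Other receptors of these ligands may stand on other lists.

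The insulin-like growth factor family was present on both sides. Igf2, the imprinted fetal growth factor, was in all 62 cells between 15.78 and 339.6 RPKM, the latter in C81, with a median of 99.44. However, 75.9% of its 50-base windows also occur in another gene of the annotation. Igf1 was at 1 RPKM in 42 cells with a median of 17.77 and a highest value of 622.9 in C90. The binding proteins Igfbp4 (median 86.72, 61 cells) and Igfbp5 (66.73, 59 cells) were higher than Igfbp3 (8.369, 43 cells). Igf2r, the scavenger receptor that removes IGF2, had a median of 29.51 RPKM and was in 61 cells, and the signalling receptor Igf1r had 7.775 and 53 cells. Igf2 and Igf1r were found together in 53 of 62 cells, and Igf1 and Igf1r in 37.

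For Wnt signals 1 of 24 ligands, 1 of 12 inhibitors and 6 of 19 receptors were at 1 RPKM in at least 50% of the cells. For TGF-beta and BMP signals the counts were 1 of 34, 3 of 16 and 3 of 14. The share over all genes was 13.2%. Fstl1, a secreted follistatin-like glycoprotein, was the secreted factor of highest median, with 107.6, 436 and 957.8 RPKM, and Sfrp1, a secreted Frizzled-related Wnt inhibitor, was at 7.849, 104.3 and 493.5. Both were in all 62 cells. Wnt5a, a ligand of noncanonical Wnt signalling, was the Wnt ligand among these, with a median of 16.6 RPKM and 47 cells at 1 RPKM. Bmp1, a procollagen C-proteinase and not a BMP ligand by function, was the gene counted in the TGF-beta and BMP ligand list, at a median of 5.417 and in 43 cells. On the receiving side stood Ryk (a Wnt5a receptor, median 40.48, 48 cells), Lgr4 (an R-spondin receptor, 6.302, 53 cells), Fzd2 (a Frizzled, 3.971, 51 cells), Bmpr1a (a type I BMP receptor, 10.95, 50 cells) and Tgfbr3 (betaglycan, 4.417, 41 cells). Wnt5a and Ryk were together in 34 cells.

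FGF ligands were seldom seen. None of 22 FGF genes was in at least 50% of the stromal cells, beside 13.2% of all genes. Of the 22, 11 were listed at 0 in every stromal cell, as were 8201 of all 22869 genes. Fgf10, the mesenchymal FGF that drives growth of the pancreatic epithelium, was at 1 RPKM in 10 cells and at 92.32 RPKM in C32, the highest. The receptor Fgfr1 had a median of 23.07 RPKM and was in 59 cells, and Fgfr2, whose epithelial isoform binds FGF10, was in 26. None of the 3 Hedgehog ligands was in at least 50% of the cells and 2 were listed at 0 in all. These are too few genes to set beside the share of all genes. The Hedgehog co-receptor Gas1 had a median of 38.16 RPKM in 60 cells and the transducer Smo 2.231 in 34.

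Of the PDGF and VEGF families, 3 of 10 receptors and 2 of 12 ligands were at 1 RPKM in at least 50% of the cells. The ligand share of 16.67% lay near the 13.2% of all genes. Pdgfrb, the receptor of perivascular mesenchyme, was between 0.08615 and 228 RPKM with a median of 21.65 and 61 cells at 1 RPKM, and Pdgfra had a median of 8.882 and 43 cells. Vegfa, the main endothelial growth factor, had a median of 5.185 RPKM in 41 cells, and Vegfb 1.584 in 33. Rgs5 and Pdgfrb, which pericytes share, had r = -0.112 across the 62 cells, too weak to describe a relation.

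Of the guidance genes, 3 of 22 ligands and 6 of 31 receptors were in at least 50% of the cells, and of the Notch genes 2 of 7 ligands and 1 of 4 receptors. The guidance ligand share of 13.64% lay near the 13.2% of all genes, and the guidance receptor share was 19.35%. Efna5, a membrane-anchored ephrin, had a median of 54.36 RPKM in 58 cells and its receptor Epha4 had 22.15 in 54, and both were in 50 cells. Jag1, a Notch ligand, had 20.55 RPKM in 60 cells and Notch2 had 11.97 in 60, and both were in 58. Slit2, a secreted repellent, had 8.733 RPKM in 52 cells and Robo1, its receptor, 6.615 in 49, and both were in 40. Dlk1, an imprinted Notch-like membrane protein that can be shed, had 8.611 RPKM in 59 cells. A shared cell says only that both transcripts were read there.

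Cytokines were represented by Mif (macrophage migration inhibitory factor), with a median of 69.32 RPKM in 57 cells. It was the 1 of 38 chemokines and cytokines (2.632%) in at least 50% of the cells, beside 13.2% of all genes. Of its windows, 37.6% occur in other genes. Ghr (growth hormone receptor) had a median of 11.1 RPKM in 46 cells, and of the neurotrophic and endothelin receptors Ednrb had 5.097 in 41 and Ntrk2 4.712 in 47. Nr2f2 (COUP-TFII, an orphan nuclear receptor of mesenchyme) was at 23.33, 128.1 and 344.1 RPKM and in all 62 cells. Lpar1, a lysophosphatidic acid receptor, was at 1.346, 88.28 and 425.7 RPKM and was the only surface receptor of the list of 212 in every stromal cell. F2r (the thrombin receptor) had a median of 43.09 in 58 cells, and Itgb1 (the common beta-1 integrin chain) 33.61 in 58.

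**Figure D5:**
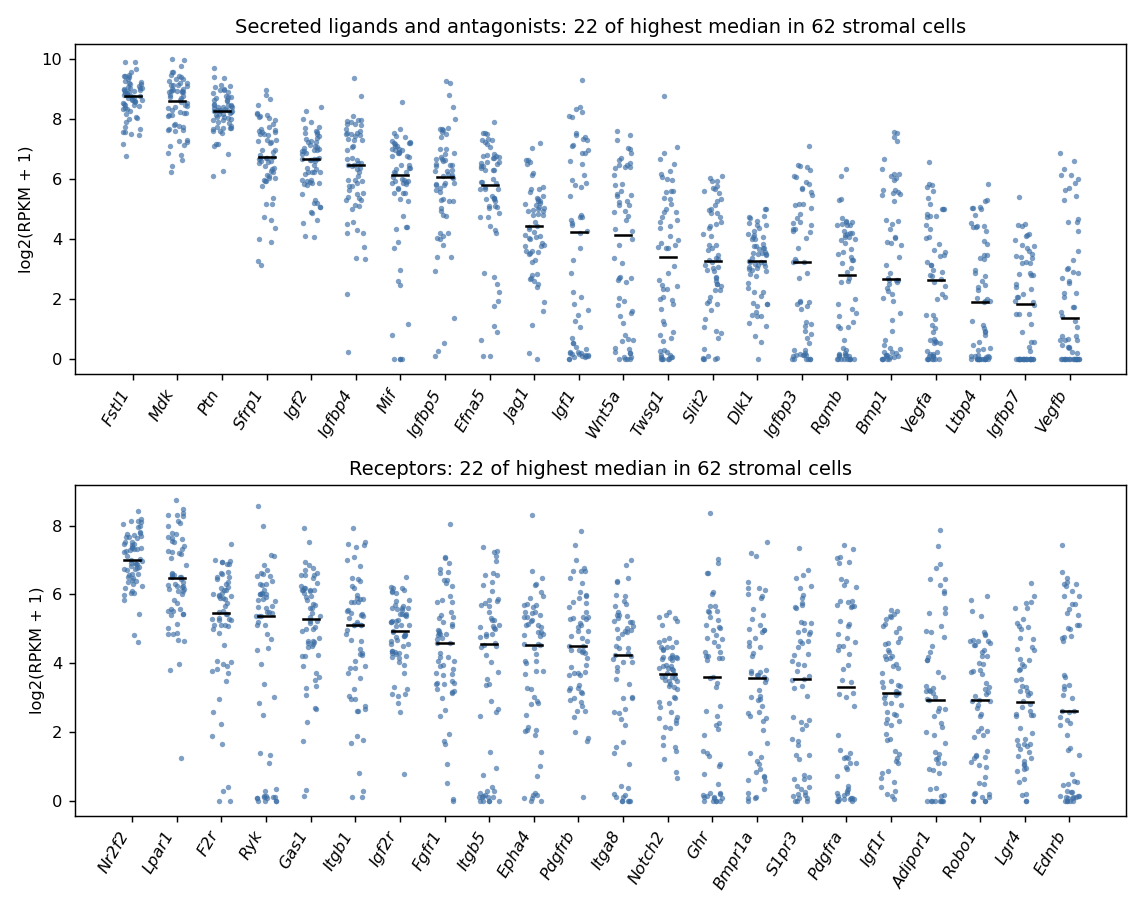
The 22 secreted factors (top) and 22 receptors (bottom) of highest median, as log2(RPKM + 1) in each of the 62 stromal cells; black bars are medians. Fstl1, Mdk, Ptn, Sfrp1 and Igf2 at the top and Nr2f2 and Lpar1 at the bottom are the genes with no stromal cell under 1 RPKM, and for most genes from Igf1 rightwards several cells lie at or near 0.

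Matrix genes were the most widely detected of these groups. After Gpc3, the highest medians were those of Mfap2 (a microfibril glycoprotein, 298.6 RPKM), Cyr61 (246), Sparc (a collagen-binding matricellular protein, 208.5), Col1a2 (173.8) and Serpinh1 (150.6). Mfap2 was between 2.977 and 1219 RPKM and Sparc between 7.33 and 629.8, both in all 62 cells. In the basement membrane list Nid1 (nidogen 1) led with 54.2 RPKM in 60 cells. Among proteases, inhibitors and crosslinking enzymes Timp3 had a median of 53.08, Mmp2 (a gelatinase) 25.25 and Loxl1 (a lysyl oxidase) 22.3 RPKM. The small leucine-rich proteoglycan Bgn had a median of 9.592 in 37 cells.

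Where the stromal cells differed from the other 15 deep cells was described by the difference of mean log2(RPKM + 1), leaving out the 5 genes of the rule. Because the rule split these same cells, and the other cells are a mixture of at least 4 kinds, the differences carry no test, and they understate the change of low genes. Of 13232 genes, 405 (3.06%) were at least 1 log2 unit higher in the stromal cells and 1061 (8.02%) at least 1 lower, with a median difference of -0.0775. The other cells had 2673 (C13) to 6311 (C72) genes at 1 RPKM, against 2353 to 5110 in the stromal cells. Their summed mesenchymal markers, without Col3a1, had a median of 177.2 RPKM and reached 600.7, against 489.6 and 1044 in the stromal cells. The part of either in these counts was not tested. In the matrix list 23 of 89 were higher and 2 lower, with a median of 0.496. Of 114 secreted factors 12 were higher and 4 lower (median 0.134), and of 179 receptors 18 were higher and 10 lower (median 0.0111). With median-of-ratios scaling the receptor median was -0.0114 and the matrix median 0.469. The balance over all genes changed when stromal and other cells were both limited to 1 range of cell numbers, with genes filtered there. It was 1010 higher and 1059 lower among cells numbered 1 to 48, and 620 and 2368 among those numbered 49 to 96. Both sides of the comparison changed, so the part of the stromal cells in this was not tested. With all deep cells and a pseudocount of 10 the balance was 68 and 140.

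The genes furthest above the other cells were led by Rgs5 at 3.43 log2 units, with medians of 141 RPKM in the stromal cells and 0.958 in the others. Ptn followed at 3.26, and Gpx8, an endoplasmic reticulum peroxidase, at 3.11. Tshz3 (2.83) and Tshz2 (2.61), teashirt zinc finger factors, were both among the 10, with Tgfbi (2.66), a secreted integrin-binding matrix protein. The others were Nrk (2.62), E030010A14Rik (2.58), St6galnac3 (2.54), a sialyltransferase, and Sema5a (2.54), a transmembrane semaphorin. None of these 10 separated the cells fully, since each was at 1 RPKM in 2 to 13 of the 15 other cells.

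The genes furthest below were Rnase4 (-3.64), a secreted ribonuclease, Fcer1g (-3.28), a signalling chain of macrophages, Vamp8 (-3.22), a secretory SNARE, Tpd52 (-3.08) and Bex1 (-3). They were followed by Chchd1 (-2.98), Phkg2 (-2.97), Dazap2 (-2.94), Cst3 (-2.91), the protease inhibitor cystatin C, and Sepp1 (-2.87), selenoprotein P. The 4 Tyrobp cells carried a part of this: without them Fcer1g was -1.02 and Sepp1 -1.03, while Bex1 was -3.92 and Phkg2 -3.99. Cdkn1c was 1.34 higher in the stromal cells and Igf2 1.73 higher, while Mdk (0.0887) and Vim (-0.00795) lay near 0 and changed sign, Mdk with median-of-ratios scaling (-0.0263) and Vim with a pseudocount of 10 (0.015).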

How the data were processed

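Each of the 81 libraries holds RNA of 1 cell. CASAVA 1.8.2 and the genome build mm9 are listed in the submitters' processing notes. Aligner, counting tool and annotation: not given in the sources used here. Values were deposited by the authors per transcript for 29510 rows of 22869 gene symbols. Its unit is not stated. The authors' values were read as RPKM, since they fall on steps of 1 read, which also gave the estimated depth.

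For each gene the transcript row with the highest mean over the 81 cells was used. With no animal named in the labels, all cells count as 1 sample and no test was run. No doublet caller was run on so few cells. Detection was 1 RPKM. The ranking by CV used a running median over 201 genes. Differences used a pseudocount of 1 and genes above 0 in at least 3 cells. Genes named were the first 20 of the rankings of abundance, uniformity and variability by CV, up to 4 per family of highest median, the 10 of largest difference in each direction, the markers and the rule's genes. Genes named from the ranking on the log scale, Cxcl12, Cxcl13, Msx1, Fos, the microRNA rows, the correlations and other genes outside this rule were picked once their values had been seen. The members and lists were chosen with earlier results of these data known. Shared 50-base windows and transcript lengths came from GENCODE vM21. Only the rankings of uniformity and variability were tried on simulated data. Those data held no zeros, unlike most genes ranked as variable by CV here, so the trial does not cover that case. The work used Python 3.11.15 with numpy 2.4.6, pandas 2.3.3 and scipy 1.17.1, and figures were drawn with matplotlib 3.10.9. A gene of the abundance and uniformity rankings is not reported here.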

Additional observations from a re-analysis of the deposited data

How the results depend on the processing

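The rule gave the same 62 stromal cells with Col3a1 at 5 RPKM, with the other genes under 5 RPKM and with means over transcript rows, and 60 with Col3a1 at 20 RPKM. Of 117 values under alternatives, 101 were counted as close to the reported one and 16 as moved. Close was a wide label: it took in 33 secreted factors above 0 RPKM against 22 reported. It also took in 2069 genes at least 1 log2 unit from the other cells, with cells numbered 1 to 48, against 1466. Col3a1 at 5 RPKM and the other genes under 5 RPKM picked the same cells, so their other values could not move. Leaving out stromal cells with 3 markers of another type removed 0 cells, and the same holds there. The list of the 50 most variable genes moved most: 32 remained with median-of-ratios size factors, 23 with cells numbered 1 to 48 and 26 with 49 to 96, 4 on the log scale, 8 with a mean floor of 1 RPKM alone, and 30 without C35 and C81. The detection threshold set the counts of genes by construction. Above 0 RPKM, 542 genes were in every cell, 5283 in at least 50% and 73 receptors in at least 50%; at 5 RPKM these were 132, 1937 and 23. With the 29 cells numbered 1 to 48, 403 genes were in every cell, and 278 with the 33 numbered 49 to 96; the cause was not tested. The 1466 genes at least 1 log2 unit from the other cells became 2988 with cells numbered 49 to 96, 3612 with a pseudocount of 0.1 and 208 with a pseudocount of 10. Of the genes counted in each setting, 27.6% were higher in the stromal cells in the main one, 48.8% with cells numbered 1 to 48 and 20.7% with 49 to 96. In these ranges the other cells were limited to the same numbers and genes were filtered within them, so the contrasts differ on both sides. The cause was not tested. Leaving out C35 and C81, the short RNA rows or the 4 Tyrobp cells was chosen after seeing the data. No paired analysis was possible because there is 1 group. Estimated depths of 1630000 to 4878000 reads without molecular identifiers, and transcripts whose reads are shared between genes, limit what a listed 0 can say.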

Other observations

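Cell cycle genes were frequent in the stromal cells. Of 20 genes of the G1/S transition and replication, 14 were at 1 RPKM in at least 50% of the cells, beside 13.2% of all genes, led by Mcm4, a subunit of the replicative helicase, with a median of 127.2 RPKM in 58 cells. Uhrf1, which maintains DNA methylation at replication, had a median of 36.8 in 56 cells and Pcna, the polymerase clamp, 22.34 in 54. Of 25 genes of G2 and mitosis, 13 were in at least 50% of the cells. Top2a, the topoisomerase that untangles chromosomes, ran from 0 over 58.82 to 614.3 RPKM in 42 cells, and Birc5 (survivin) from 0 over 24.5 to 578.7 in 40. Top2a and Birc5 had r = 0.646 on the log2(RPKM + 1) scale across the 62 cells, which share depth as a source of variation. Against the other deep cells, Mcm4 was 2 log2 units higher in the stromal cells, and 4 of the 20 G1/S genes were at least 1 higher and 0 lower, while 7 of the 25 G2 and mitosis genes were at least 1 lower and 0 higher, beside 3.06% of all genes higher and 8.02% lower.

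Cdkn1c, an inhibitor of the cell cycle and the second most abundant gene, had r = 0.477 with H19 and 0.276 with Igf2, its imprinted neighbours on mouse chromosome 7, and Igf2 and H19 had 0.302. These are descriptions over cells of 1 sample.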
